A study of Mus musculus with 12 samples.

Results

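Chemokine ligands are small secreted proteins that draw leukocytes along a gradient to the cells that make them. The ligands described here are the 33 genes, of 23660 in the deposited expression table, whose symbol begins with Ccl, Cxcl, Cx3cl or Xcl and a number. They were chosen by a rule on the name and not on the values, though with earlier results of these data known. All 33 were also in the count table of 32623 genes. Ccl25, Ccl28 and Xcl1 had too few counts to be tested, which left 30 ligands among 16910 genes tested. Of these 30, 23 passed the test in at least 1 of 6 comparisons between groups. The matching share of all genes was not counted, and shares for each comparison are given below.

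RNA was taken from ventricle tissue of wild-type male C57BL/6J mice aged 6 to 8 weeks, in 4 groups of 3 samples. The labels call one group Sham, and their protocol does not spell out how that operation was done. MI stands for myocardial infarction, made by ligating the left anterior descending artery of the heart, and this group had the ligation alone. Fer-1+MI received ferrostatin-1 at 1 mg/kg per day and Lip-1+MI received liproxstatin-1 at 3 mg/kg per day, each from 24 h before the same ligation. Both compounds are small molecules that trap lipid radicals and so block ferroptosis, a death of cells by peroxidation of membrane lipids. A vehicle control for the compounds, the time from ligation to tissue collection, and whether the 3 samples of a group were 3 animals are not stated in any source used here. The p-values therefore measure the spread between these samples, which may be technical.

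Chemokines bind receptors of the G protein coupled class on leukocytes, and they are grouped by the spacing of their first cysteines into CC, CXC, CX3C and XC families. In the injured heart, CXC ligands with an ELR motif are known to attract neutrophils, and CC ligands of Ccr2 are known to attract monocytes. Cxcl12 is made by resting tissue and holds cells that carry Cxcr4. Many inflammatory chemokine genes are switched on by the transcription factor NF-kappaB, and Cxcl9, Cxcl10 and Cxcl11 by interferons.

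Libraries held 45.5 to 60.8 M counts per sample. All 10 heart muscle markers examined were detected, with a summed level of 14298 to 14665 FPKM (fragments per kilobase of gene and per M mapped) in Sham and 13815 to 15459.7 in MI. Sham samples lay at -61.5 to -52.2 on the first principal component, and all ligated samples at 12.6 to 26.4. Sham 1 was the lowest of the Sham samples in 22 of 30 tested ligands, so results are also given without it where it changes a call. Gene identifiers carry the rat prefix although the labels say mouse, and no source used here names the genome build. Coordinates are those of the files. They place Cxcl1 on chromosome 14, Ccl20 on 9 and Cxcl12 on 4, whereas in mouse (GRCm38.p6) these genes lie on 5, 1 and 6. The gene models counted were therefore not those of that mouse build. If the tissue is mouse, levels, ranks and genes at 0 may be affected, which was not tested.

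The promoters of 6 ligands are shown: Cxcl1, Cxcl2, Cxcl3 and Ccl20 rose after ligation and hold a match to a motif searched, Ccl22 rose and holds none, and Cxcl12 fell and holds none. Sequences are those of the mouse genes of the same symbol (RefSeq, GRCm38.p6, 250 bases before to 50 after the start, 5′ to 3′ on the gene's strand). They could be matched for 21 of the 33 ligands. Capitals mark each match to a form of the NF-kappaB motif, GGG then any 2 bases then TTTCC, read on both strands; this form was chosen after the promoters were seen. Cxcl1 lies at chr5:90890995-90891294, plus strand, Cxcl2 at chr5:90903649-90903948, plus strand, Cxcl3 at chr5:90785851-90786150, plus strand, Ccl20 at chr1:83116516-83116815, plus strand, Ccl22 at chr8:94745434-94745733, plus strand, and Cxcl12 at chr6:117168285-117168584, plus strand.
Cxcl1: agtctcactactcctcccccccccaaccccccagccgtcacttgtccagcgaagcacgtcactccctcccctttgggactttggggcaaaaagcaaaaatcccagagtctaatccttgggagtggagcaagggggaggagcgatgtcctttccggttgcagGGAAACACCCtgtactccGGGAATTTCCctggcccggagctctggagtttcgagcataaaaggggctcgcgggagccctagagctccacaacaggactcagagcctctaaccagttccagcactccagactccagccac
Cxcl2: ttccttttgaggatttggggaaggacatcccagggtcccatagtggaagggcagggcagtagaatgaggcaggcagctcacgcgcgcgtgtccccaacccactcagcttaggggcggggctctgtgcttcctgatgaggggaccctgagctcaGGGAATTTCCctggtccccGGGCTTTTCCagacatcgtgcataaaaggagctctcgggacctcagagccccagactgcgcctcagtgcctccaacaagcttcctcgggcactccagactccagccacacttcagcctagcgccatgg
Cxcl3: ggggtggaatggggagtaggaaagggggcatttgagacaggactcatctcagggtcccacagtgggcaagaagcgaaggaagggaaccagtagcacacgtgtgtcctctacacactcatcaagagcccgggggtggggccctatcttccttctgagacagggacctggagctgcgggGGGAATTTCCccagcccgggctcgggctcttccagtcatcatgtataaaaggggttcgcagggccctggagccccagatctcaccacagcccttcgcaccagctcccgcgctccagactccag
Ccl20: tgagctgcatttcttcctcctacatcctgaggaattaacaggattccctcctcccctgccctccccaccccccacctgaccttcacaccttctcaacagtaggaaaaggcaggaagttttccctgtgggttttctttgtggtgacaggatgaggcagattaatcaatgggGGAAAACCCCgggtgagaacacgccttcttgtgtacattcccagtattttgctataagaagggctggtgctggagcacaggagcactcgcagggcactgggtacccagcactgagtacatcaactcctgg
Ccl22: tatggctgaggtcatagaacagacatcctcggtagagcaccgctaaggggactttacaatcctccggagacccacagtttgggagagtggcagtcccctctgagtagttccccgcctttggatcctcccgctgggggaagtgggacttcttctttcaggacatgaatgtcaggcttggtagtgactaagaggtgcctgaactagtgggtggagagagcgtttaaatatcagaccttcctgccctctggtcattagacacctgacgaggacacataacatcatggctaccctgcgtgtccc
Cxcl12: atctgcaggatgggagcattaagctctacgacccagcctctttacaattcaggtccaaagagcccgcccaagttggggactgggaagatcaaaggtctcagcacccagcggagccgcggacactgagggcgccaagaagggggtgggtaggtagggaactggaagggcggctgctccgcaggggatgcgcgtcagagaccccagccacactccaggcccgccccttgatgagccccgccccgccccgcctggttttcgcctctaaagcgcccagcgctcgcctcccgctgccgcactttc
Cxcl1 held 2 matches, whose first bases lay at -89 on the opposite strand and at -71 on the gene's strand, counted from the start. Cxcl2 held 2 on its own strand, at -97 and -78, and Cxcl3 held 1 at -73. In Ccl20 the match lay on the opposite strand at -80, so the capitals there read as its reverse complement. The windows of Ccl22 and Cxcl12 held none of these letters. Of 12 ligands that were called higher in MI and had a promoter window, 5 held a match, the fifth being Ccl9, and 7 did not (Ccl1, Ccl3, Ccl12, Ccl19, Ccl22, Cx3cl1 and Cxcl10). Over all 32851 promoters in the table, 535 held a match, or 1.63%; since the form was chosen with the ligands' promoters in view, nothing is read from the comparison of these shares. A match is a run of letters in a mouse promoter and was not tested as a binding site. Promoters of the gene models in the files, whose identifiers are of the rat form, were not examined. Other forms of the motif were not counted, so a window without a match, such as that of Cxcl10, may still hold another form.

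Ligation was followed by higher chemokine transcripts across most of the family. The 33 ligands made up 0.0979 to 0.127% of all counts in Sham and 0.377 to 0.417% in MI, with no overlap between the groups. Of 30 tested ligands, 19 rose in MI against Sham and 2 fell (edgeR quasi-likelihood test, adjusted over all genes), where 22.8% of all genes tested rose, 20.8% fell and 43.6% changed in either direction. The median log2 fold change of the 30 was 1.04, and over all genes it was 0. With scaling by library size only, 17 ligands rose and 3 fell, against 14.3% and 35.1% of all genes, whose median then lay at -0.17. Without Sham 1, 18 rose and 2 fell, where 19.9% of all genes rose and 17.3% fell. In bulk tissue, more cells of a type and more RNA per cell cannot be told apart.

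Per length, Ccl2 was the most abundant ligand in every group, at 254 ± 46.8 FPKM in Sham (SD, n = 3) and 1180.1 ± 90.4 in MI, above 99.8% of the genes in the table. In Sham it was followed by Ccl6 at 104 FPKM, Cxcl1 at 93.2, Ccl7 at 81.9 and Ccl12 at 59.8. Among these 4, each overlapped with its neighbour in the order. In MI the order was Ccl2, then Cxcl1 at 768 ± 72.7 FPKM, then Ccl7 at 239 ± 9.91 and Cxcl6 at 204 ± 40.2, the last 2 overlapping. Ccl2 and Cxcl1 together held 46.9 to 49.5% of all ligand counts in MI, whereas in Sham the 2 ligands with most counts were Ccl2 and Cxcl12, with 37.7 to 40.8%.

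**Figure D1:**
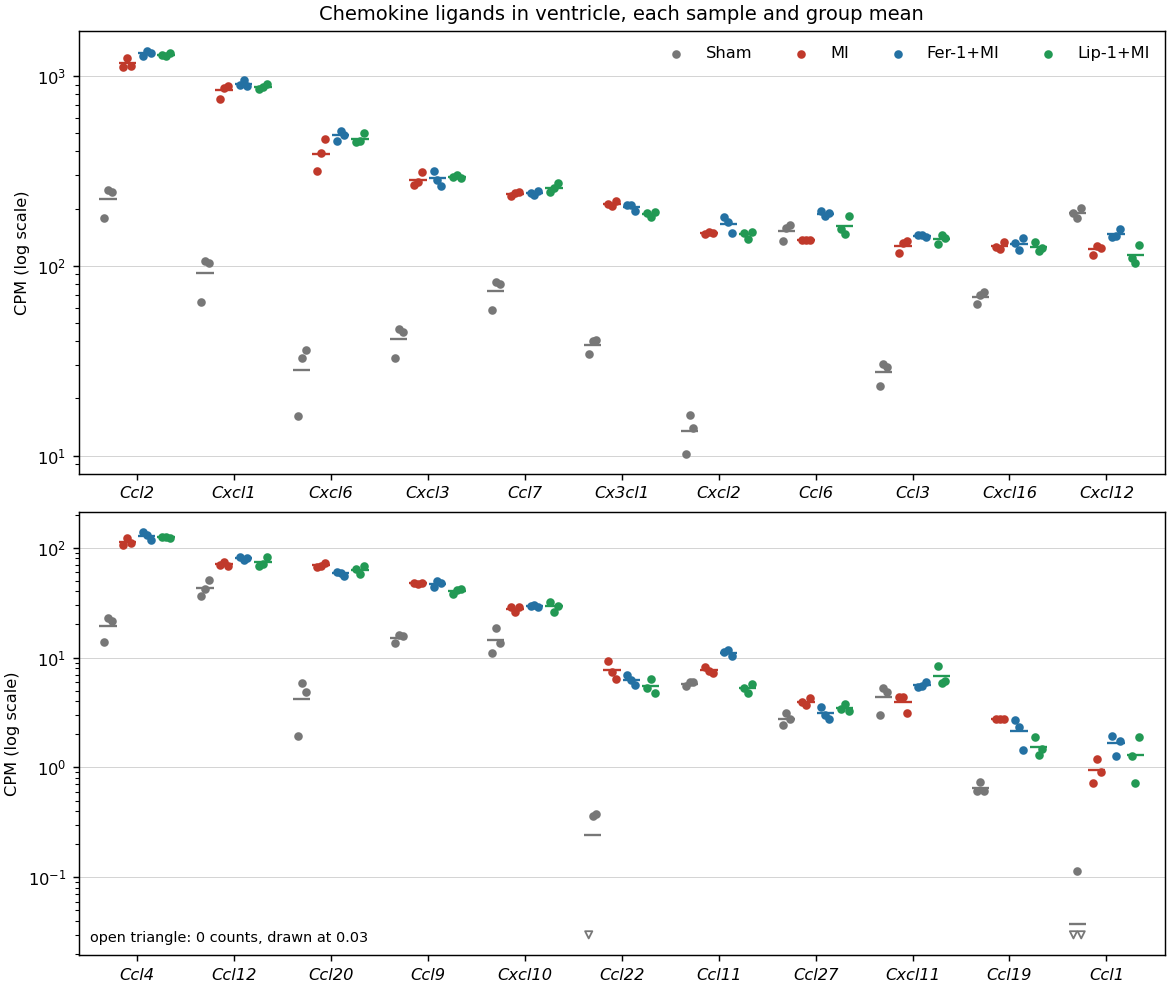
Level of 22 ligands in each of the 12 samples, in CPM (counts per M of scaled library size) on a log axis; points are samples, short lines are group means, and open triangles mark samples with 0 counts. For Ccl2 the Sham samples sit at 178 to 251 CPM and the MI samples at 1117 to 1245, whereas for Cxcl12 Sham sits at 179 to 202 and MI lower, at 114 to 127.

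All 4 neutrophil-attracting CXC ligands rose in MI. These bind Cxcr2 in rodents. Cxcl1 (ENSRNOG00000002802), also called KC or CINC-1, stood at 64.6, 106 and 104 CPM in Sham and at 759, 867 and 889 in MI. Fer-1+MI had 895, 950.0 and 881 and Lip-1+MI had 858, 877 and 901. Every ligated sample was above every Sham sample, and the 3 ligated groups overlapped. Cxcl1 rose by 3.19 ± 0.18 on the log2 scale (SE; adjusted p = 5.91e-07, edgeR), or 9.15-fold.

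Cxcl2, also called MIP-2, read 10.2, 16.4 and 14 CPM in Sham, 147, 149.9 and 149 after ligation alone, 181, 169 and 149 with Fer-1 and 149, 139 and 150.2 with Lip-1. It rose 11-fold in MI (log2 fold change 3.45 ± 0.14, adjusted p = 5.15e-09). For Cxcl3 the CPM were 32.9, 46.4 and 44.8 in Sham, 266, 276 and 310.3 after ligation alone, 317, 284 and 264 with Fer-1 and 295, 299 and 289 with Lip-1. Cxcl3 rose by 2.78 ± 0.12. Cxcl6 had 16.2, 32.6 and 35.8 CPM in Sham, 314, 393 and 463 after ligation alone, 452, 515 and 489 with Fer-1 and 449, 452 and 501 with Lip-1. Its rise of 3.78 ± 0.29 had the widest interval of the 4, from 3.13 to 4.44. Sham and ligated samples did not overlap in any of these genes.

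One gene carried most of the summed level of neutrophil markers. The 6 neutrophil markers found summed to 22.9 to 27.2 FPKM in Sham and 38.4 to 40.6 in MI, of which Ncf1, a subunit of the phagocyte oxidase that macrophages also carry, made up means of 23.1 and 37.0 FPKM. Of 3 that could be tested, Ncf1 rose by 0.83 (70.6 to 126 CPM), and S100a8 and Csf3r were not called. The granule genes Mpo and Elane and the calprotectin gene S100a9 were too low to test, and Mpo was at 0 in all Sham samples. The receptor Cxcr2 had a mean of 0.595 CPM in Sham and 0.187 in MI (log2 fold change -1.61 ± 0.85, adjusted p = 0.136). The part of neutrophil numbers in the rise of the ligands was not tested.

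The 3 monocyte-attracting ligands of Ccr2 also rose together. Ccl2 (ENSRNOG00000007159), or MCP-1, is the main one, and its samples stood at 178, 251 and 245 CPM in Sham and 1117, 1245 and 1125 in MI. With the compounds they stood at 1273, 1346 and 1327 for Fer-1 and at 1295, 1272 and 1315 for Lip-1. All 6 compound-treated samples were above the 3 MI samples. Against Sham, Ccl2 rose 5.17-fold in MI (log2 fold change 2.37 ± 0.11, adjusted p = 1.01e-08).

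Ccl7, or MCP-3, had 58.7, 82.3 and 80.6 CPM in Sham, 232, 242 and 245 after ligation alone, 242, 236 and 248 with Fer-1 and 243, 255 and 273 with Lip-1, and rose by 1.70 ± 0.10 in MI. Ccl12, known as MCP-5 in the mouse, changed least of the 3. Its samples read 35.9, 41.9 and 51.1 CPM in Sham, 69.4, 74.1 and 67.6 after ligation alone, 81.8, 77.1 and 80.1 with Fer-1 and 68.0, 71.2 and 82.5 with Lip-1, a rise of 0.71 ± 0.10 in MI. Macrophage and monocyte markers overlapped between the groups as a sum: 11 genes totalled 454 to 495 FPKM in Sham and 439.6 to 506 in MI. The most abundant genes weigh most in such a sum. Of the 11, 6 rose and 2 fell, where 22.8% of all genes tested rose and 20.8% fell. The receptor Ccr2 was not found under that symbol and is not analysed here.

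Among 5 CC ligands that attract macrophages and other leukocytes, 3 rose in MI and Ccl5 and Ccl6 did not pass the test. Ccl3, or MIP-1 alpha, read 23.2, 30.3 and 29.4 CPM in Sham, 117, 131 and 134 after ligation alone, 145, 146 and 141 with Fer-1 and 131, 144 and 139 with Lip-1. It rose by 2.2 ± 0.08 (adjusted p = 5.6e-12). Ccl4, or MIP-1 beta, its neighbour in the genome, read 13.7, 22.8 and 21.4 in Sham, 105, 122 and 109.5 after ligation alone, 137, 132 and 117 with Fer-1 and 124, 124 and 123 with Lip-1. Its rise was 2.53 ± 0.16. The model of Ccl3 shares 779 bases with AC114233.1 on the other strand, and no source used here says whether reads were counted by strand.

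Ccl9, a ligand of Ccr1 in the mouse, stood at 13.5, 16.1 and 15.6 CPM in Sham, 48.0, 47.0 and 47.6 after ligation alone, 44.1, 49.4 and 47.4 with Fer-1 and 38.0, 41.2 and 42.4 with Lip-1, a rise of 1.66 ± 0.07 in MI. Ccl6 (ENSRNOG00000030021), which myeloid cells of rodents make, was already high in Sham. Its samples read 134, 158 and 164 CPM in Sham, 136, 136 and 137 after ligation alone, 193, 183 and 189 with Fer-1 and 156, 147 and 182 with Lip-1. Sham and MI overlapped for Ccl6 (log2 fold change -0.16 ± 0.08, adjusted p = 0.106), whereas Fer-1+MI stood above all others. With scaling by library size only, Ccl6 was called lower in MI, at -0.32 ± 0.08 (adjusted p = 0.00306), and without Sham 1 it was also called lower, at -0.24 (adjusted p = 0.01), as it was without Lip-1+MI 3, at -0.16 (adjusted p = 0.0463), in a fit of the 2 groups alone, at -0.17 (0.0469), and with FPKM in limma, at -0.30 (0.00758 to 0.0158). Ccl5, or RANTES, which T cells make, never exceeded 0.587 CPM.

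The largest folds belonged to ligands that were low in Sham. Ccl22, the ligand of Ccr4 from macrophages and dendritic cells, had 0, 19 and 24 raw counts in the Sham samples and 421, 438 and 302 in MI. In CPM this was 0, 0.359 and 0.375 against 9.30, 7.43 and 6.44, with 6.89, 6.25 and 5.67 for Fer-1 and 5.31, 6.31 and 4.75 for Lip-1. Ccl22 rose by 4.90 ± 0.42 (adjusted p = 6.3e-07). On the scale of log2(FPKM + 1), which shrinks changes of low genes, the value was 2.06. Ccl20, the ligand of Ccr6, reached much higher levels: 1.94, 5.87 and 4.83 CPM in Sham, 66.7, 68.1 and 72.9 after ligation alone, 60.2, 58.7 and 55.7 with Fer-1 and 63.2, 57.2 and 67.8 with Lip-1. It rose 16.2-fold (4.02 ± 0.28).

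Ccl1, the ligand of Ccr8, had 0, 6 and 0 counts in Sham and 33, 70 and 43 in MI. In CPM the MI samples stood at 0.729, 1.19 and 0.917, Fer-1+MI at 1.94, 1.28 and 1.74, and Lip-1+MI at 1.26, 0.721 and 1.88. Its call held without each library, yet the size of its log2 fold change of 4.62 ± 0.68 rested on single Sham samples. It was 3.97 without Sham 3, and without Sham 2, when both remaining Sham samples were at 0, the fitted 8.70 depended on the prior count. Ccl17, a second ligand of Ccr4, had at most 16 counts in any sample and was called in no comparison.

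Both ligands made as membrane-bound proteins rose. Cx3cl1, or fractalkine, which endothelial cells present to cells with Cx3cr1, read 34.3, 40.2 and 40.6 CPM in Sham and 212, 206 and 220.3 in MI. The compound groups read 209, 208 and 195 with Fer-1 and 189, 181 and 193 with Lip-1. Its rise of 2.47 ± 0.06 had the smallest adjusted p of the family, 2.11e-15. Cxcl16, the ligand of Cxcr6, read 63.2, 69.8 and 72.4 CPM in Sham, 125, 123 and 133 after ligation alone, 131, 121 and 139.5 with Fer-1 and 133, 119.6 and 124 with Lip-1, and rose by 0.89 ± 0.06.

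Of 3 ligands of Cxcr3, which interferon induces, Cxcl10 alone rose in MI. Cxcl10, or IP-10, read 10.9, 18.4 and 13.7 CPM in Sham, 28.6, 26.2 and 28.6 after ligation alone, 29.7, 29.8 and 28.9 with Fer-1 and 32.1, 26.1 and 29.5 with Lip-1 (0.95 ± 0.14, adjusted p = 4.46e-05). Cxcl11 (ENSRNOG00000022298), or I-TAC, overlapped between Sham and MI, with 2.97, 5.31 and 4.88 CPM against 4.38, 4.37 and 3.11. It read 5.43, 5.49 and 5.95 with Fer-1 and 8.32, 5.85 and 6.10 with Lip-1. Cxcl9 stood between 0.526 and 1.57 CPM over all samples. The models of Cxcl10 and Cxcl11 lie wholly within that of Art3 on the other strand, so their reads and those of Art3 may not have been separated. Among interferon regulatory factors, Irf1 rose by 1.59 and Irf8 by 0.74, and Irf9 and Irf7 fell by 0.55 and 0.44 in MI against Sham.

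Homeostatic ligands moved both ways. Cxcl12 (ENSRNOG00000013589), or SDF-1, read 189.6, 179 and 202 CPM in Sham, 114, 127 and 124 after ligation alone, 142, 143 and 155 with Fer-1 and 109.9, 104 and 128 with Lip-1. The 3 Sham samples were above all 9 ligated ones, and Cxcl12 fell by 0.64 ± 0.07 in MI (adjusted p = 9.57e-07). Cxcl17, chosen for mention after its values were seen, also fell in MI, by 0.95 ± 0.38 from 0.914 to 0.474 CPM, but its adjusted p of 0.0493 rose above the threshold under 12 of 20 alternatives, up to 0.157. Cxcl14 stood between 1.88 and 3.36 CPM in all samples and was not called.

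Ccl19, a ligand of Ccr7 that stromal cells of lymph nodes make, read 0.607, 0.736 and 0.610 CPM in Sham, 2.74, 2.78 and 2.75 after ligation alone, 2.72, 2.31 and 1.44 with Fer-1 and 1.89, 1.3 and 1.46 with Lip-1. It rose by 2.08 ± 0.26 in MI. Ccl27, a skin chemokine that binds Ccr10, read 2.43, 3.13 and 2.75 CPM in Sham, 3.93, 3.68 and 4.28 after ligation alone, 3.53, 2.99 and 2.78 with Fer-1 and 3.43, 3.74 and 3.27 with Lip-1. Ccl27 rose by 0.51 ± 0.16 in MI (adjusted p = 0.0151), a call lost with library size only (adjusted p = 0.0773), without Sham 1 (0.0692) and without MI 3 (0.0587). Its model overlaps that of Il11ra1 by 7 bases on the other strand. Ccl21 and Cxcl13, which direct lymphocytes within lymph nodes, stood at 0.203 to 1.58 and 2.52 to 4.77 CPM and were not called.

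Ccl11 (ENSRNOG00000007335), or eotaxin, the ligand of Ccr3 on eosinophils, was the one ligand called in all 3 comparisons among the ligated groups. It read 5.50, 5.97 and 5.93 CPM in Sham, 8.24, 7.6 and 7.16 after ligation alone, 11.3, 11.8 and 10.2 with Fer-1 and 5.30, 4.73 and 5.77 with Lip-1. Its rise in MI was 0.40 ± 0.12 (adjusted p = 0.00864), and with library size only it was 0.24 and not called (adjusted p = 0.0989). Ccl24, the other eotaxin, had 11, 13 and 10 raw counts in Sham and at most 8 in any ligated sample. It was called in no comparison of the main fit, and the counts were too few for a firm reading. Against Sham, MI stood at -1.88 ± 1.29 (adjusted p = 0.265). This became a call of -6.53 without MI 3 (adjusted p = 0.0442), when both remaining MI samples were at 0. On log2(FPKM + 0.1) without a filter, limma called Ccl24 lower than Sham in all 3 ligated groups, at -1 to -0.85 (adjusted p from 0.0131 to 0.0314). An edgeR fit of the 2 groups alone called it lower in Lip-1+MI, at -3.05 (adjusted p = 0.0278).

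**Figure D2:**
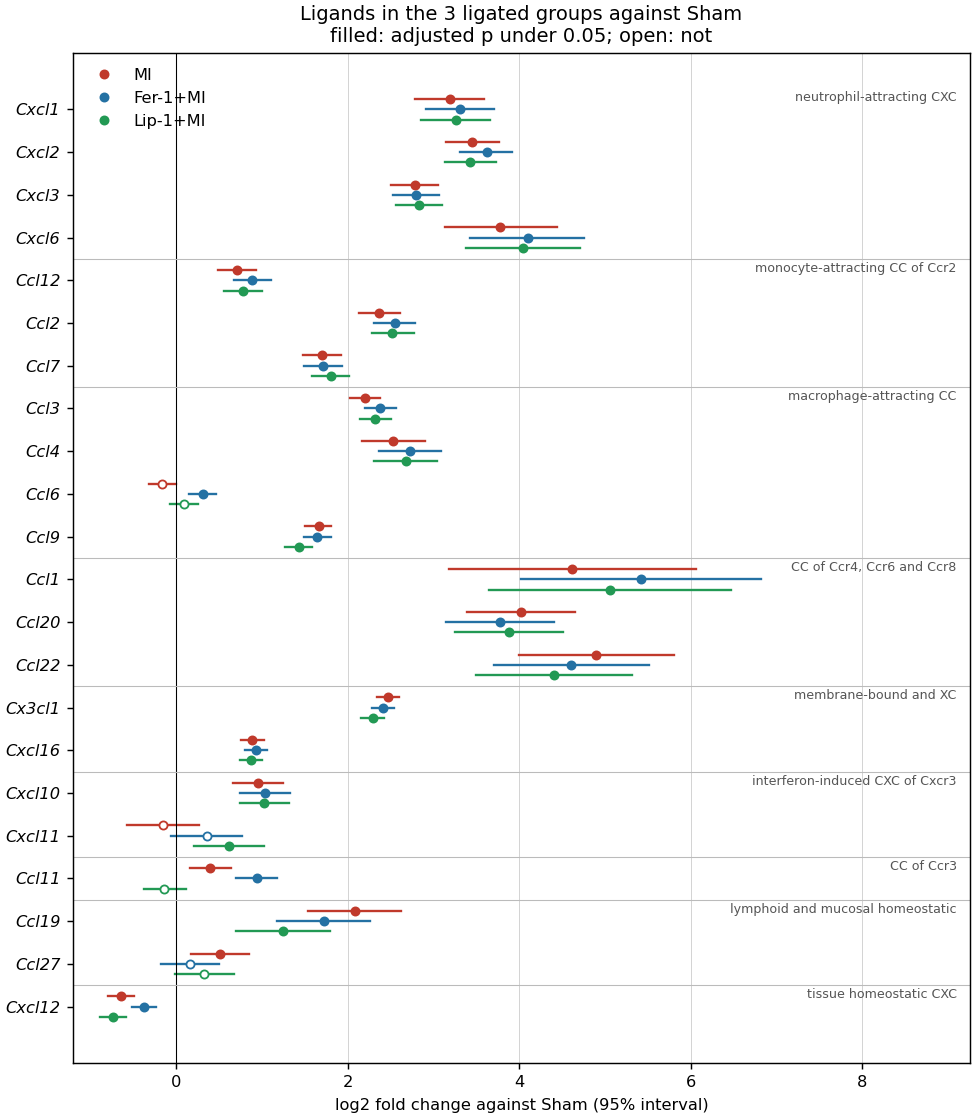
Log2 fold change of 22 ligands against Sham (points, with 95% intervals) in the 3 ligated groups, grouped by the receptor or role of the ligand; filled points passed the adjusted threshold of 0.05. The 3 groups share the same Sham samples. Points of a ligand lie close together for Cxcl1 (3.19, 3.31 and 3.26) and apart for Ccl11 (0.40, 0.94 and -0.14).

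The groups given a compound were higher than Sham in nearly the same number of ligands as MI. All 3 comparisons share the Sham samples, so their values are set side by side. Against Sham, 19 ligands rose and 1 fell in Fer-1+MI, where 19.6% of all genes rose and 16.7% fell (36.3% in either direction). In Lip-1+MI 18 rose and 1 fell, where 20.8% of all genes rose and 18.0% fell (38.8% in either direction). Scaling by library size only gave 18 and 1 in Fer-1+MI, against 11.7% and 31.5% of all genes (median -0.16). In Lip-1+MI it gave 17 and 2, against 11.8% and 34.9% (median -0.19). In all 3 ligated groups, 17 ligands were called higher than in Sham and Cxcl12 was called lower. The share of all genes called in all 3 was not counted, so nothing is read from this number.

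The neutrophil-attracting ligands spanned 2.78 to 3.78 in MI, 2.80 to 4.10 with Fer-1 and 2.83 to 4.04 with Lip-1 on the log2 scale against Sham. Ccl2 stood at 2.37, 2.55 and 2.52 in the same order, Ccl20 at 4.02, 3.77 and 3.88, Ccl22 at 4.90, 4.60 and 4.40, and Cx3cl1 at 2.47, 2.41 and 2.29. Cxcl12 was lower by -0.64, -0.38 and -0.74. Ligands whose call differed among the 3 comparisons were Ccl6, Ccl11, Ccl27, Cxcl11 and Cxcl17. Ccl6 passed in Fer-1+MI alone, at 0.31 ± 0.08 (adjusted p = 0.00438), a call lost under 4 of 20 alternatives, library size only (adjusted p = 0.112) and FPKM in limma (0.0929 to 0.148). Cxcl11 passed in Lip-1+MI alone, at 0.62 ± 0.20 (adjusted p = 0.0178), and lost the call under 6 of 20 alternatives: library size only (adjusted p = 0.0686), without Sham 1 (0.0993), without Lip-1+MI 1 (0.116), and FPKM in limma (0.0591 to 0.111). Such a call in 1 group is no test of a difference between groups, which the comparisons below give.

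With neither compound was a neutrophil-attracting or Ccr2-binding ligand called lower than in MI. Against MI, Fer-1+MI had 3 ligands higher and none lower of 30, where 2.29% of all genes rose and 3.07% fell (5.36% in either direction). At an unadjusted p under 0.05 the lower side held Ccl27 alone, and the higher side also held Cxcl17, Cxcl11, Cxcl13 and Ccl3. DESeq2 called 3 higher and 0 lower, where 3.63% of all genes were higher and 3.95% lower. In a fit of these 2 groups alone, 3 were higher and 1 lower, Ccl20 at -0.25 (adjusted p = 0.0416). There 1.38% of all genes were higher and 2.02% lower. Lip-1+MI had 1 higher and 2 lower, where 3.05% of all genes rose and 3.05% fell (6.10% in either direction). At an unadjusted p under 0.05 its lower side also held Ccl9 and Cx3cl1 and its higher side Ccl6. DESeq2 called 2 higher and 4 lower, where 4.22% of all genes were higher and 3.87% lower. Medians over the 30 ligands were 0.14 and 0.02, and over all genes 0 and -0.01. Both comparisons share the MI samples.

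For the 4 neutrophil-attracting and 3 Ccr2-binding ligands, log2 fold changes against MI ran from 0.01 to 0.32 with Fer-1 and from -0.03 to 0.26 with Lip-1, none called. The intervals bound what could have been missed. For Ccl2 the 95% interval was -0.05 to 0.41 with Fer-1 and -0.07 to 0.38 with Lip-1. For Cxcl1 it was -0.25 to 0.48 and -0.30 to 0.43, and for Cxcl6, the least precise, -0.26 to 0.89 and -0.31 to 0.84. Without Sham 1, which tightened the shared spread, Ccl2 was called higher with Fer-1 at 0.18 ± 0.05 (adjusted p = 0.0287). A p above the threshold does not show that levels were alike.

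With Fer-1, Ccl6, Ccl11 and Cxcl12 were higher than in MI. Ccl6 went from 137 ± 0.444 to 188 ± 5.22 CPM (0.46 ± 0.08, adjusted p = 0.00142), with all Fer-1+MI samples above all MI samples. Lip-1+MI samples also lay above all MI samples for Ccl6, uncalled (0.24 ± 0.08, adjusted p = 0.0731). Lip-1+MI against Fer-1+MI was not called either (-0.22 ± 0.07, adjusted p = 0.154). Ccl11 went from 7.67 ± 0.544 to 11.1 ± 0.809 CPM (0.53 ± 0.11, adjusted p = 0.00787), again with no overlap. Both calls of Fer-1+MI against MI, for Ccl6 and Ccl11, held under all 20 alternatives. Cxcl12 went from 122 ± 6.85 to 147 ± 7.66 CPM (0.27 ± 0.07, adjusted p = 0.0340), still below the Sham mean of 190.4 ± 11.6. That call was lost under 7 of 20 alternatives: with FPKM in limma (adjusted p from 0.0752 to 0.135) and without MI 1 (adjusted p = 0.143), MI 3 (0.0828), Fer-1+MI 2 (0.0642) or Fer-1+MI 3 (0.144).

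With Lip-1, Cxcl11 was higher and Ccl11 and Ccl19 lower than in MI. Cxcl11 went from 3.95 ± 0.729 to 6.76 ± 1.36 CPM (0.77 ± 0.20, adjusted p = 0.0247), with a call lost under 4 of 20 alternatives: without MI 3 (adjusted p = 0.134) or Lip-1+MI 1 (0.142), and in limma on log2(FPKM + 0.1) with a filter (0.0535) or without (0.101). Ccl11 went from 7.67 to 5.27 ± 0.519 CPM (-0.54 ± 0.12, adjusted p = 0.00746) and held under all 20 alternatives, with no overlap of samples. In CPM its level with Lip-1 overlapped that of Sham (-0.14 ± 0.12, not called). That reading depended on the scaling. In edgeR with library size only, Ccl11 was called lower than Sham, at -0.31 (adjusted p = 0.039). With FPKM in limma it was also called lower, at -0.28 to -0.24 (adjusted p from 0.0185 to 0.0281). Ccl19 went from 2.76 ± 0.0212 to 1.55 ± 0.301 CPM (-0.83 ± 0.24, adjusted p = 0.0460), and the call was lost under 11 of 20 alternatives with adjusted p up to 0.164, among them the removal of any Sham or MI sample (0.0554 to 0.115), of Fer-1+MI 2 (0.0578), and of Lip-1+MI 2 (0.164) or 3 (0.138). Without Sham 1, 5 ligands were called against MI, among them Ccl6 (0.24), Ccl9 (-0.23) and Cx3cl1 (-0.18), where 5.6% of all genes were called. Without MI 3 only 1 was, where 3.82% of all genes were.

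**Figure D3:**
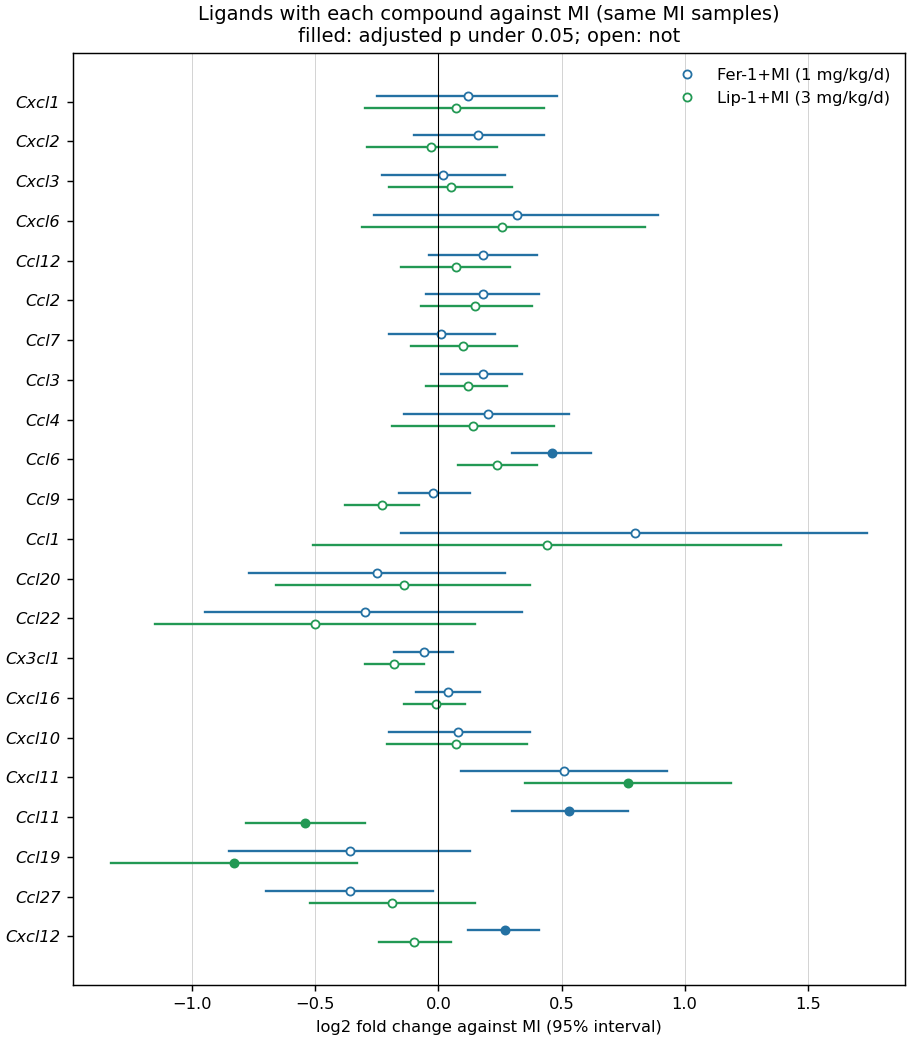
Log2 fold change of 22 ligands in Fer-1+MI and Lip-1+MI against the same MI samples (points, with 95% intervals); filled points passed the adjusted threshold of 0.05. Most intervals span 0, Ccl11 lies on opposite sides at 0.53 and -0.54, and doses differed (1 and 3 mg/kg per day).

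Set directly against each other, the compound groups differed in 2 of 30 ligands, both lower with Lip-1 than with Fer-1, where 1.74% of all genes were higher and 1.41% lower (3.15% in either direction). The doses were not matched. Ccl11 was lower by -1.08 ± 0.11 (adjusted p = 1.55e-05), at 5.27 against 11.1 CPM with no overlap. Cxcl12 was lower by -0.36 ± 0.07 (adjusted p = 0.00696), at 114 ± 12.8 against 147 CPM, also with no overlap, a call lost in limma on FPKM without a filter (adjusted p = 0.0720). Endothelial markers moved the same way: 6 genes summed to 44.5 to 48.9 FPKM with Fer-1 and 32.4 to 40.2 with Lip-1, and 3 of the 6 (Vwf, Kdr and Emcn) were lower with Lip-1. In Sham and MI the sums were 45.5 to 46.6 and 37.3 to 41.9, in deposited FPKM without the scaling used for the calls. In MI against Sham, edgeR called 1 of the 6 higher and 1 lower, where 22.8% of all genes rose and 20.8% fell. Fibroblast markers summed to 2791 to 3039 FPKM with Fer-1 and 2762 to 2817 with Lip-1, with none of 5 genes called by edgeR, 3 at an unadjusted p under 0.05 and 1 called by DESeq2. The 5 mural markers summed to 1332 to 1519 FPKM with Lip-1 and 1138 to 1168 with Fer-1, and 1 of them was called, Acta2. The 6 epicardial and mesothelial markers summed to 65.8 to 66.9 FPKM with Lip-1 and 60.1 to 64.0 with Fer-1, and edgeR called none (1 at an unadjusted p under 0.05, and 1 by DESeq2). The part of these cells in the levels of Cxcl12 and Ccl11 was not tested.

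Many ligand genes lie side by side in the genome, and neighbours did not always move alike. On chromosome 10, 5 ligands lie between 69412017 and 69537882: Ccl2 rose by 2.37, Ccl7 by 1.70, Ccl11 by 0.40, Ccl12 by 0.71 and Ccl1 by 4.62 in MI against Sham. Further on, between 70739800 and 70886355, Ccl9, Ccl3 and Ccl4 rose by 1.66, 2.2 and 2.53, while Ccl6, which lies between Ccl9 and Ccl3, stood at -0.16 and Ccl5 at 0.68, both uncalled. On chromosome 14, Cxcl2, Cxcl1, Cxcl3 and Cxcl6 (18731378 to 18862407) rose by 2.78 to 3.78. The Cxcr3 ligands (17195014 to 17234712) stood at -0.15 to 0.95. On chromosome 19, Cx3cl1 and Ccl22 rose by 2.47 and 4.90 and Ccl17 beside them was not called (10619220 to 10681145). On chromosome 5, between 58159066 and 58198782, Ccl19 rose by 2.08 and Ccl27 by 0.51. Cxcl12 lies alone on chromosome 4 (149261044 to 149273891), Ccl20 on chromosome 9 (88918433 to 88921001) and Cxcl16 on chromosome 10 (57060007 to 57064600).

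**Figure D4:**
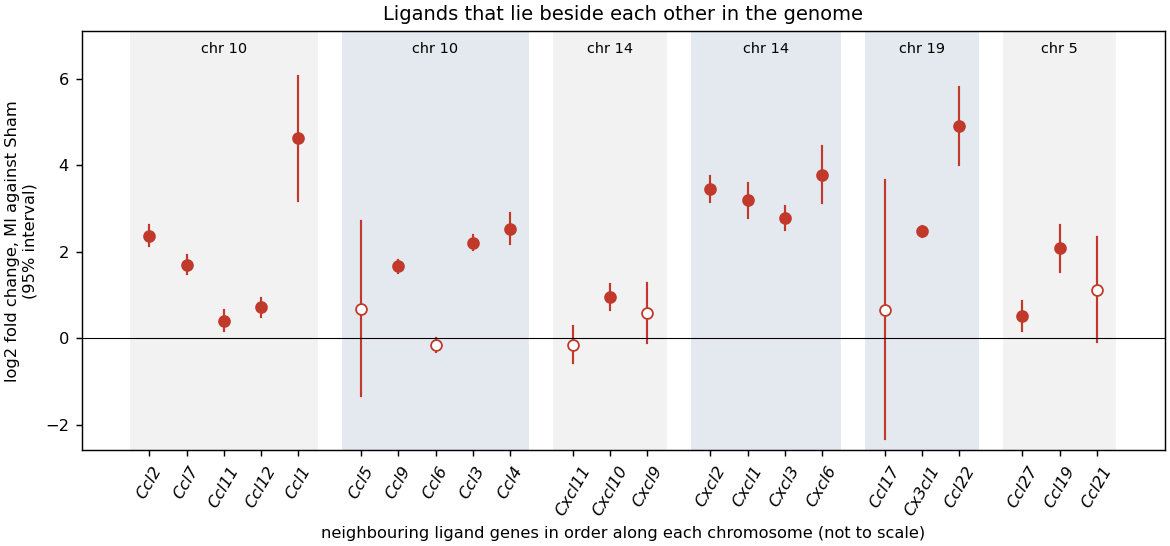
Log2 fold change in MI against Sham (points, with 95% intervals) of ligands that lie within a shared cluster, in order along each chromosome and not to scale; filled points passed the adjusted threshold of 0.05. The 4 genes Cxcl2, Cxcl1, Cxcl3 and Cxcl6 sit together at 2.78 to 3.78, whereas Ccl6 at -0.16 sits between Ccl9 at 1.66 and Ccl3 at 2.2.

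Per length, receptors were lower than the leading ligands. Cxcr4, the receptor of Cxcl12, fell with its ligand from 12.7 to 7.43 CPM (-0.78 ± 0.13, adjusted p = 9.63e-05). Per length, the highest receptor mean in MI was 3.59 FPKM for Cxcr4, while 19 ligands exceeded it. Cxcr3, Cxcr1, Ccr6 and 5 more were too low to test. The 7 T, B and NK cell markers summed to 5.35 to 7.13 FPKM in Sham and 4.78 to 6.54 in MI. The T cell receptor genes Cd3e and Cd3g were at 0 in all groups. Whether the gene models account for these zeros was not tested.

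Atypical receptors bind chemokines without driving migration and can clear them. Ccrl2, which holds chemerin and is counted with them, rose from 7.52 to 20.8 CPM in MI (1.46 ± 0.10) and was higher again with Fer-1, at 27.0 CPM (0.38 ± 0.09 against MI, adjusted p = 0.0213). Ackr3, which scavenges Cxcl12 and Cxcl11, rose from 19.5 to 32.7 CPM in MI (0.74 ± 0.09) and was higher with Lip-1, at 42.1 CPM (0.36 ± 0.09 against MI, adjusted p = 0.0146). Ackr4, which scavenges Ccl19 and Ccl21, fell from 5.15 to 3.23 CPM (-0.68 ± 0.20, adjusted p = 0.00883). Ackr2 was not called. Cxcl12 was lower and its scavenger Ackr3 higher in every ligated group than in Sham.

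**Figure D5:**
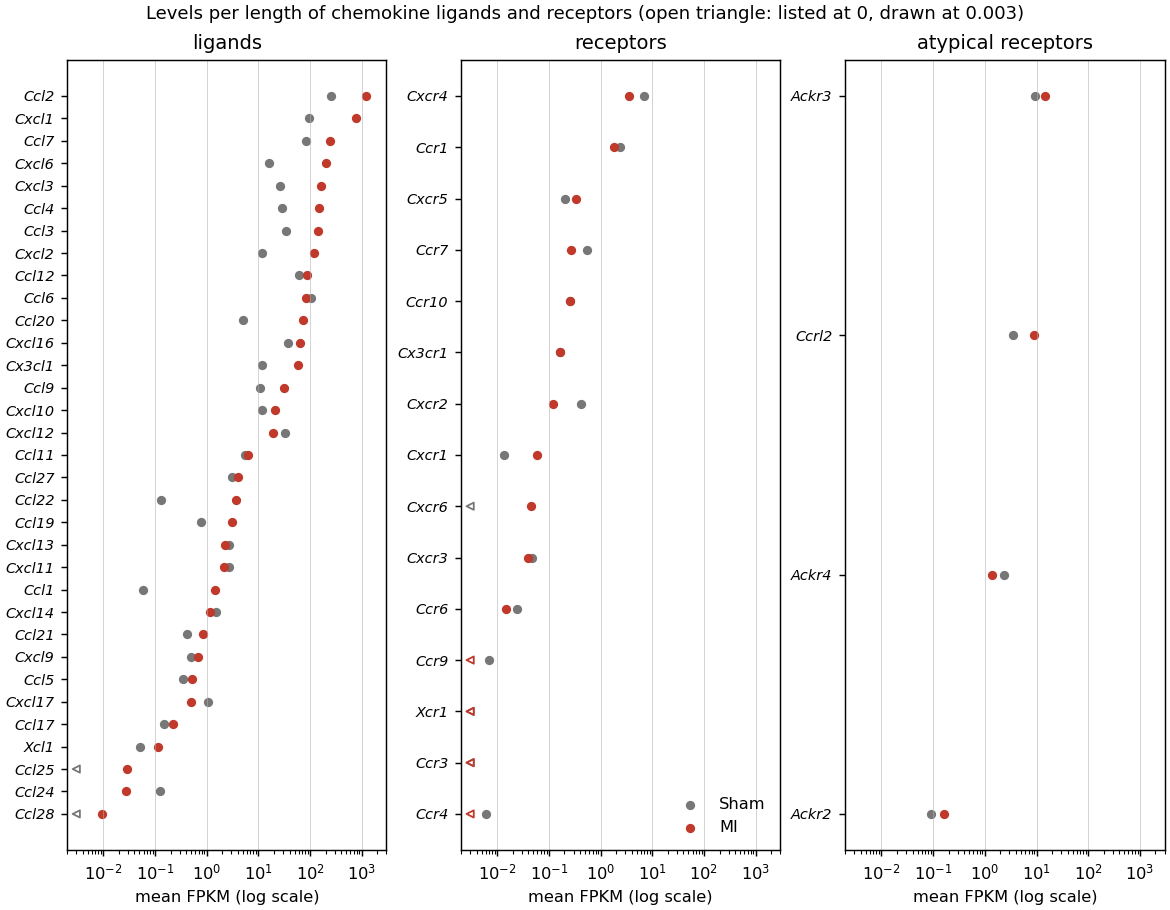
Mean FPKM on a log axis of the 33 ligands, receptors and 4 atypical receptors in Sham and MI; open triangles mark genes listed at 0. Ccl2 reaches 1180.1 FPKM in MI, whereas the highest receptor in MI, Cxcr4, is at 3.59 FPKM.

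Enzymes that cut or shed chemokines changed in both directions, with 4 of 8 higher and 2 lower in MI, where 22.8% of all genes rose and 20.8% fell. Mmp9, which trims CXC ligands, rose by 2.51 from 16.7 to 95.3 CPM, and the macrophage elastase Mmp12 by 0.84. The sheddases of Cx3cl1 and Cxcl16 split: Adam17 rose by 0.54 and Adam10 fell by 0.41. Mmp2, which cuts Cxcl12 and Ccl7, fell by 0.64 in MI and was higher than MI with Fer-1 by 0.46 and with Lip-1 by 0.53. Dpp4, which clips the end of Cxcl12, Cxcl10 and Ccl11, rose by 0.53 in MI.

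Most genes listed for the NF-kappaB pathway were also higher in MI. Of 17 tested, 16 rose in MI and 1 fell, where 22.8% of all genes tested rose and 20.8% fell. The list was chosen with earlier results of these data known, and its part in the rise of the ligands was not tested. The gene that fell was Myd88, an adaptor of interleukin-1 and Toll-like receptors, by 0.19. The 5 with the smallest p were the subunits and inhibitors Nfkb2 (2.17), Relb (1.79), Nfkbie (1.74), Nfkb1 (1.57) and Rela (1.17). None of the 17 was called with either compound against MI, with log2 fold changes from -0.18 to 0.17 for Fer-1 and -0.13 to 0.23 for Lip-1. DESeq2 also called none, and at an unadjusted p under 0.05 edgeR found 0 with Fer-1 and 1 with Lip-1. Among 16 genes of receptor signalling, 6 rose in MI and none fell, or 37.5% called, where 43.6% of all genes tested were called; Pik3r5, the regulatory subunit of PI3K gamma, rose by 2.23. Markers of the epicardium and mesothelium summed to 39.2 to 43.4 FPKM in Sham and 71.4 to 76.3 in MI with all 6 called higher, and mural markers to 1019 to 1098 and 1302 to 1439.7. Their part in the rise of the ligands was not tested.

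Of the 33 ligands, 3 were too low to test. Ccl25, from thymus and gut, had counts in 2 samples, 8 and 4. Ccl28, from mucosal epithelium, had at most 16 counts, in Lip-1+MI 1. Xcl1, or lymphotactin, from T and NK cells, had at most 12, in MI 2. A floor of 3 counts equals 0.0469 to 0.0663 CPM over the libraries, which covers counting error only.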

How the data were processed

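Poly(A) RNA of 12 ventricle samples was sequenced as 150 bp pairs from dUTP-stranded libraries, per the labels' protocols. The authors deposited raw counts per gene and FPKM per gene. The submitters' processing notes list HISAT2 2.2.1 and StringTie 2.1.6 beside cutadapt 1.9, FastQC, edgeR and DESeq2, with no roles stated. No source used here names the genome build or says whether counting used strand. Identifiers in the deposited tables are of the rat form, although the labels name mouse. Cxcl1, Ccl20 and Cxcl12 lie on other chromosomes there than in the mouse build GRCm38.p6. No sample was left out and no library was a duplicate of another.

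Counts were tested with edgeR 4.0.16 (quasi-likelihood, robust, TMM scaling, R 4.3.3) after filterByExpr with a minimum count of 10 and a minimum total of 15. All 12 samples entered 1 fit by group (8 residual degrees of freedom), and 6 contrasts were adjusted by Benjamini-Hochberg over 16910 genes, with a threshold of 0.05. CPM are TMM-scaled, SD is over 3 samples, and intervals are at 95%. FPKM are as deposited, without that scaling, so FPKM sums in Sham and MI carry a shift. In limma on log2(FPKM + 0.1), the median over all genes was -0.15 in MI against Sham. The deposited FPKM served for levels per length and, in limma 3.58.1 on log2(FPKM + 0.1) or log2(FPKM + 1), as an alternative, as did DESeq2 1.42.0. The procedure was tested on simulated data. Depth was 45.5 to 60.8 M counts.

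Values in every sample are given for tested ligands that reached a mean of 1 CPM in any group and had a call in at least 1 contrast, which were 22. For other pathway lists, up to 5 genes with the smallest p are named, beside others a ligand's result turns on. The members and lists were chosen with earlier results of these data known. The main fit has no replicate block: the labels tie same-numbered samples to no shared source, and in no pair did their deviations correlate above 0.1. Yet 9 of 12 samples correlated best with their own number, and whether these shared a source was not tested. Results with a replicate block are given below. Some genes of the receptor and inducer lists are not reported here.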

Additional observations from a re-analysis of the deposited data

Results flagged for a closer look

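A direct test between the compound groups called 2 of 30 ligands under the same ligation, both lower with Lip-1. Of all genes tested, 1.41% were lower and 3.15% were called in either direction. Ccl11 was lower in Lip-1+MI than in Fer-1+MI by a log2 fold change of -1.08 (adjusted p = 1.55e-05, edgeR), with all 3 samples of one group below all 3 of the other. Cxcl12 was lower by -0.36 (adjusted p = 0.00696), also without overlap, a call lost in limma on FPKM without a filter (adjusted p = 0.072). The doses differed between the compounds.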

How the results depend on the processing

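Of 68 calls over 30 ligands and 6 comparisons, 59 held under all 20 alternatives, 9 were lost under at least 1, and none reversed. Leaving out 1 library at a time gave 20 to 21 called ligands in MI against Sham, 20 to 21 in Fer-1+MI against Sham, 18 to 20 in Lip-1+MI against Sham, 2 to 4 in Fer-1+MI against MI, 1 (without MI 3) to 5 (without Sham 1) in Lip-1+MI against MI, and 2 to 3 in Lip-1+MI against Fer-1+MI. The share of all genes called moved as well, in Lip-1+MI against MI to 3.82% without MI 3 and 5.6% without Sham 1. In that comparison the main fit called 3 ligands and 6.10% of all genes. DESeq2 called 6 ligands (8.09% of all genes), a fit of only these 2 groups 5 (5.6%), and the replicate block 5 (7.52%). In limma on log2(FPKM + 0.1) without a filter it was 1 (2.66%). For Lip-1+MI against Fer-1+MI that last setting also called 1 (1.15%). The cause was not tested. With the replicate block, 20 ligands were called in MI against Sham (45.1% of all genes), 20 with Fer-1 (37.6%) and 19 with Lip-1 (40.5%). Deviations of same-numbered samples correlated at -0.024 to 0.088, and 9 of 12 samples correlated best with their own number. Depth set a floor of 3 counts, or 0.0469 to 0.0663 CPM.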

Other observations

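The platelet chemokines Pf4 and Ppbp lie outside the name rule. Pf4 stood at 90.6 ± 6.32 CPM in Sham (SD, n = 3), 89.7 ± 0.602 in MI, 93.2 ± 12.6 in Fer-1+MI and 98.8 ± 9.13 in Lip-1+MI, and was called in no comparison. Ppbp was at 0 in all Sham samples and at means of 0.0863, 0.324 and 0.0860 CPM in the ligated groups in that order.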
